A study of Caenorhabditis elegans with 4 samples.

Results

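Runs of closely spaced binding sites of the transcription factor PHA-4 were examined in late-stage embryos of the worm Caenorhabditis elegans, a nematode. A run is a row of at least 4 successive ChIP-seq peaks on one chromosome in which every midpoint lies less than 2000 bp from the next. The members were chosen by their measured positions in the list of called peaks, and 1065 of 9165 peaks (11.6%) fell into 224 such runs. Chromatin immunoprecipitation followed by sequencing (ChIP-seq) was made from 2 ChIP and 2 input libraries, 1 of each per replicate, and the deposited list combines them. The hermaphrodite strain, OP37, carries the mutation unc-119(ed3) III and the insertion wgIs37, which holds unc-119(+) beside the fusion pha-4::TY1::EGFP::3xFLAG. Both the ChIP and the input libraries came from this strain, grown at 20 °C, and 2% formaldehyde was used for both. An affinity-purified goat antibody against the green fluorescent protein (GFP) of the fusion was used for the ChIP. The peaks therefore report the tagged protein made from the transgene, and the genotype names no change to the worm's own pha-4 gene. Whole embryos were lysed, so binding in different tissues is summed.

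PHA-4 is the FoxA factor of the worm. FoxA proteins belong to the forkhead family, recognise DNA through a winged-helix domain, and can bind their sites in closed chromatin, for which they are called pioneer factors. In the worm embryo PHA-4 is needed to make the pharynx, the feeding organ, and it is also present in the gut and the rectum. Regulatory regions of animal genes often hold several binding sites near one another, and a row of neighbouring peaks can lie within one gene's control region or extend over several genes.

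The genes and the DNA sequence under the runs were not analysed here. Positions are those of the WormBase WS180 build, and no annotation or sequence of that build was used. The list gives each peak's chromosome, start, end and q-value, a false-discovery measure from the authors' caller for ChIP against input, so the depth behind a peak is unknown and no value has a replicate error. Width and q-value come from the same calls as the positions that chose the members, so peaks in runs and other peaks are described side by side with no test. Widths are in bp, and scores are −log10 of the q-value, so a higher score is a better one.

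Most runs were small. There were 125 runs of 4 peaks, 63 of 5, 20 of 6, 7 of 7, 4 of 8, 2 of 9, 2 of 10 and 1 of 11, with a mean of 4.75 peaks per run. Of the 8100 peaks outside runs, 4814 had no other midpoint within 2000 bp, 2272 lay in pairs and 1014 in chains of 3. From the first base of its first peak to the last base of its last, a run measured 1957 to 12108 bp, with a median of 4403 bp and quartiles at 3721 and 5362.5 bp. The runs occupied 1065 kb in all, or 1.07% of the 99.98 Mb spanned by the peaks on the 6 chromosomes. Runs of 4 had a median length of 3949 bp (1957 to 6003 bp), runs of 5 had 4848 bp (2581 to 7289 bp) and runs of 6 or more had 7078 bp (4486 to 12108 bp). Length followed the number of peaks while spacing did not, since the mean distance between midpoints was 1161, 1098 and 1175 bp in the median run of these 3 sizes. Called peaks filled 37.6% of a run's length in the median run, 8.75% in the sparsest and 85.0% in the fullest.

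**Figure D1:**
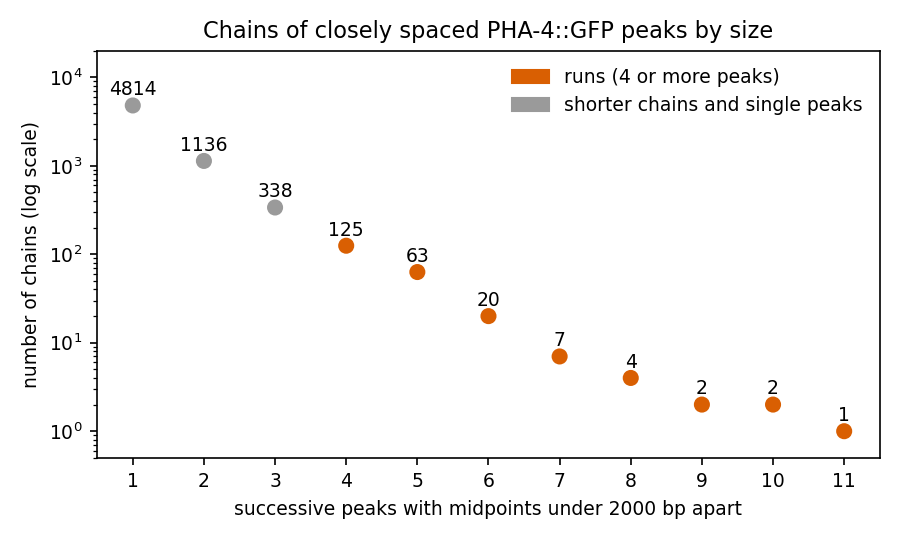
Number of chains (vertical axis, log scale) by the number of successive peaks with midpoints under 2000 bp apart (horizontal axis); orange points are runs and grey points are shorter chains and single peaks. Runs of 4 numbered 125 and the single longest held 11 peaks, against 4814 peaks that stood alone.

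The limits of the rule passed through a continuous range of values. The 3 longest distances inside a run were 1997, 1995.5 and 1995.5 bp, and 31 runs held a distance over 1900 bp. Just outside, 338 chains of 3 peaks missed the minimum size, and the 3 closest pairs of short chains that would together have made a run were 2002.5, 2002.5 and 2003.5 bp apart. There were 18 such joins under 2100 bp and 88 under 2500 bp. At the ends of runs, the nearest excluded neighbours lay 2001, 2005 and 2015 bp away.

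Within runs the 841 distances between neighbouring midpoints ranged from 329 to 1997 bp, with a median of 1115.5 bp and quartiles at 837.5 and 1483 bp. The fullest 250 bp class was 750 to 1000 bp, which held 182 distances (21.6%), followed by 1000 to 1250 bp with 168 (20.0%). The unoccupied gap from the end of one peak to the start of the next was at least 200 bases, as it was in the whole list, and its median in runs was 684 bases. Gaps of 200 to 299 bases made up 14.9% of those in runs and 11.7% of the 1812 gaps under the same distance limit in pairs and chains of 3. Spacing within a run was uneven as a rule, and the SD of a run's distances was 32.2% of their mean in the median run. By the rule, the next midpoint beyond a run's end is at least 2000 bp away. That peak lay at a median distance of 6763.5 bp (quartiles 3489 and 12758 bp), and 25 runs had no other midpoint within 10 kb on either side.

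The run with the most peaks, which was also the longest, was on chromosome II from 9071750 to 9083857 and held 11 peaks in 12108 bp. From first to last its peaks were 374, 532, 283, 295, 211, 213, 328, 14, 283, 192 and 6 bp wide. Their distances were 703.5 to 1831 bp, and peaks filled 22.6% of the length. The best q-value, 1.14e-19, belonged to the seventh peak, the next best (1.15e-17) to the first, and the poorest (0.00395) to the last. The better-scoring 4582 included 5 of its 11 peaks, and the best 10% of the list included 0.

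On chromosome III a pair of runs held 10 peaks each and reached better scores. The one from 5834703 to 5845044 had peaks of 56, 590, 924, 180, 667, 155, 251, 138, 1522 and 179 bp, and its ninth, the widest, reached q = 2.26e-60, while the eighth had 0.00978. The other, from 1218059 to 1228998, had peaks of 746, 83, 953, 575, 300, 613, 1006, 448, 152 and 410 bp. Its best q-values were 1.26e-69 in the eighth peak and 1.71e-43 in the sixth, which were not its widest. In the first of these runs 4 of 10 peaks ranked among the better-scoring 4582, and in the second 7 of 10 did.

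Of the runs with 9 peaks, the one on chromosome II from 6939852 to 6947724 was the more evenly spaced, with distances of 831 to 1175.5 bp. Its peaks were 17 to 941 bp wide and its best q-value was 7.55e-18. The one on chromosome V from 14495645 to 14506517 had distances of 1005.5 to 1892.5 bp, widths of 129 to 1286 bp and a best q-value of 1.62e-18. The largest runs of the remaining chromosomes held 8 peaks. Chromosome IV had a pair of this size, and the one with the better best q-value is described first. In it, from 5747345 to 5756504, the sixth peak was 1779 bp wide with q = 4.26e-143, the best score of any peak in a run, while the other 7 peaks ranged from q = 2.49e-18 to 0.00276. The other, from 7092016 to 7101368, was slightly longer at 9353 bp, with widths of 147 to 557 bp and a best q-value of 4.81e-31. On chromosome I, from 7078765 to 7088000, the first peak was 1738 bp wide (q = 4.23e-42), the seventh 714 bp (q = 1.41e-48) and the other 6 had q-values from 4.63e-19 to 0.00744. On the X chromosome, from 3900804 to 3907835, the 8 peaks had q-values from 1.55e-07 to 0.00732 and widths from 19 to 461 bp, and 1 of them ranked among the better-scoring 4582.

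**Figure D2:**
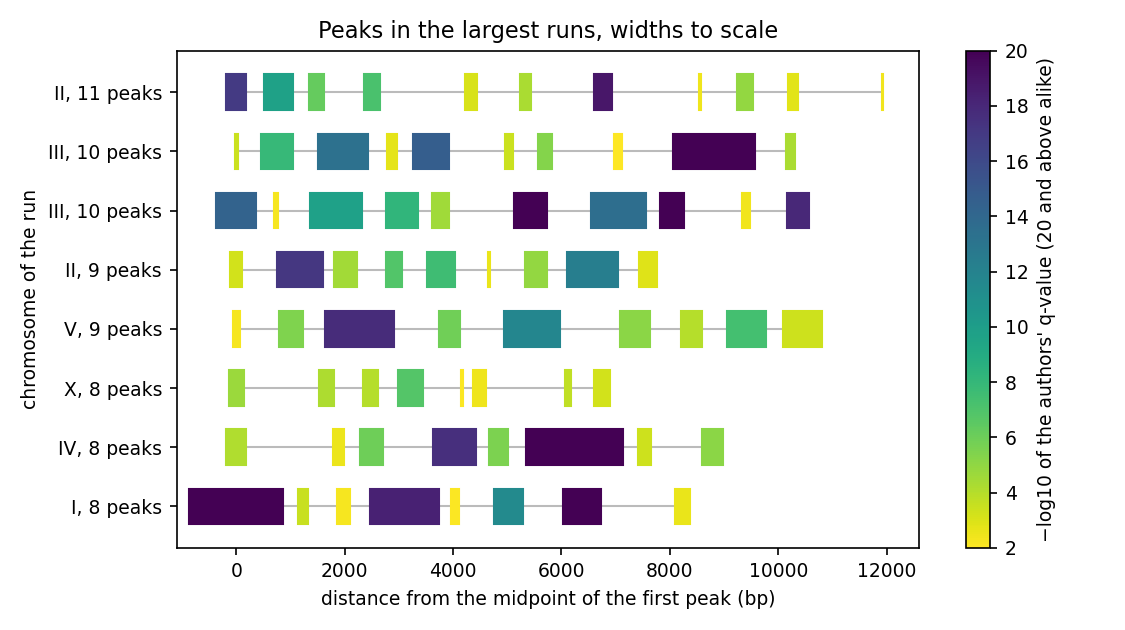
Peaks of 8 of the runs named above (of the pair on IV, the first described is drawn), 1 run per line with its chromosome and number of peaks, drawn to scale along the distance in bp from the midpoint of the first peak (peaks under 25 bp are drawn 25 bp wide); colour gives −log10 of the authors' q-value, with 20 and above alike. Wide, well-scoring peaks stand among narrow, poorly scoring ones, as in the IV run whose 1779 bp peak lies between peaks of 351 and 244 bp.

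The chromosomes differed in how many of their peaks lay in runs. Chromosome II held 51 runs and 15.7% of its 1562 peaks were in them. Chromosome IV held 45 runs with 13.9% of its 1563 peaks, III 42 with 12.6% of 1598, X 38 with 9.99% of 1711, I 28 with 8.62% of 1496 and V 20 with 8.02% of 1235. The share did not follow the density of peaks alone. Chromosomes I and II had close densities, 99.9 and 102 peaks per Mb of span, yet II held 3.34 runs per Mb and I held 1.87. Chromosome III had the highest density, 116 peaks per Mb, and a lower share in runs than II and IV. Chromosome V was lowest in both, with 59.1 peaks and 0.957 runs per Mb.

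**Figure D3:**
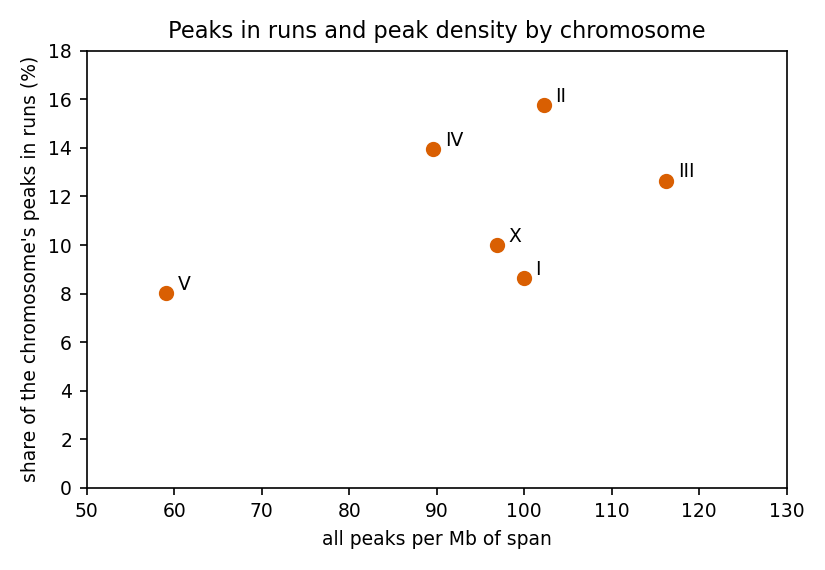
Share of each chromosome's peaks that lie in runs (vertical axis, %) against its density of all peaks (horizontal axis, peaks per Mb of span), 1 point per chromosome. I and II have similar densities (99.9 and 102 per Mb) and shares of 8.62% and 15.7%.

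Along the chromosomes runs were spread with long bare stretches. On the 5 autosomes, 83 of 186 runs (44.6%) had their middle in the central 33.3% of the span, where 41.7% of all autosomal peaks lay. The centre held 55.0% of the runs and 46.2% of all peaks on V, 53.6% and 41.0% on I, and 51.0% and 43.7% on II. On X it held 39.5% of the runs and 34.6% of all peaks. On III and IV the share of runs was below that of all peaks, with 35.7% and 39.5% on III and 35.6% and 39.0% on IV. Among autosomal peaks in the centres 13.2% were in runs, against 11.2% of those outside them. Of 102 bins of 1 Mb, 16 held no run, and 8 of these 16 were among the 21 bins of chromosome V. The longest bare stretches were on V. One ran from 14506518 to 18557295 (4.05 Mb, with 131 peaks at 32.3 per Mb). The other ran from 981562 to 4798207 (3.82 Mb, with 149 peaks at 39.0 per Mb), where V as a whole had 59.1 per Mb. Chromosome I held no run before position 3720615, although 305 peaks lay there at 82.1 per Mb. At the other end of that chromosome, 4 runs with 23 of the 99 peaks lay between 14 and 15 Mb.

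The bins with the most runs held 7 each. They were 8 to 9 Mb and 9 to 10 Mb on chromosome II, with 36 of 152 and 38 of 148 peaks in runs, and 5 to 6 Mb on chromosome IV, with 39 of 130. The bin from 5 to 6 Mb on chromosome III had more peaks, 175, and 6 runs with 33 of them. Successive runs on a chromosome were separated by a median of 317 kb, and 7 of the 218 intervals were under 10 kb. The closest pair was on chromosome III, from 6076561 to 6079141 and from 6081179 to 6084982, with 2037 bases and no peak between them. Their 10 peaks were narrow, at 4 to 214 bp, and their q-values ranged from 1.08e-06 to 0.00447. In 5 of the 7 close intervals no peak lay between the runs. One of these was on chromosome IV, where a run of 4 peaks from 7084789 to 7088616 was followed after 3399 bases by a run of 8 from 7092016 to 7101368. Another was on chromosome III, where runs of 5 peaks from 8509853 to 8514651 and from 8519135 to 8525036 lay 4483 bases apart. The shortest interval that did hold a peak, 4851 bases with 1 peak, lay on chromosome II between runs of 4 and 5 from 6822347 to 6837636.

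**Figure D4:**
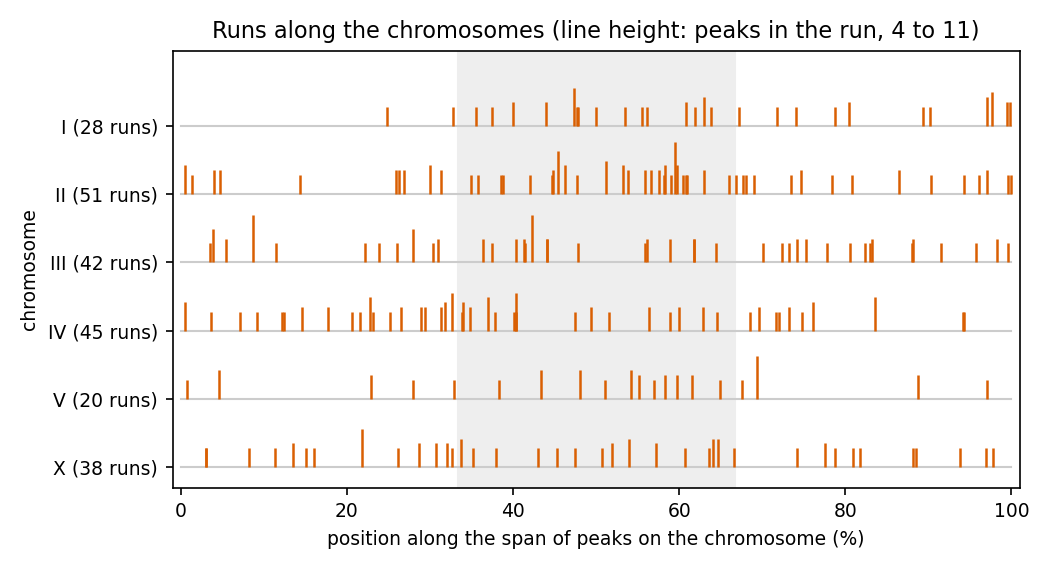
Position of the 224 runs along each chromosome, as percent of the span from its first to its last peak; each line is a run and its height is proportional to its number of peaks (4 to 11), and the shaded band is the central 33.3%. The V line shows 20 runs with wide bare stretches, and the I line has none in its first part.

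Peaks in runs had a median width of 338 bp (quartiles 220 and 506 bp), against 309 bp (221 and 429 bp) for the 8100 peaks outside runs. The lower quartiles were alike, so the distributions parted in their upper portion. Of peaks in runs, 25.9% were over 500 bp and 4.88% over 1000 bp wide, against 17.6% and 2.84% outside runs. At the narrow end the shares were close, with 19.7% of run peaks and 19.1% of other peaks under 200 bp, and 13 of the 110 peaks under 10 bp lay in runs. Median width was 303 bp for peaks on their own, 316 bp in pairs, 325 bp in chains of 3, 345 bp in runs of 4, 324 bp in runs of 5 and 364.5 bp in runs of 6 or more. Peaks from 1001 to 2000 bp wide were in runs more often than the list as a whole, at 50 of 245 (20.4%) beside 11.6% of all peaks. Of the 37 wider ones 2 were in runs (5.41%). By its construction the rule holds back the widest peaks, whose midpoints cannot lie close to those of their neighbours.

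On each of the 6 chromosomes the median width was higher in runs than outside them. It was 449 and 332 bp on V, 377 and 305 bp on I, 327.5 and 289 bp on II, 330 and 306 bp on IV, 355 and 334 bp on X, and 295 and 287 bp on III. The difference was thus 8 bp on III and 117 bp on V, where the run peaks numbered 99. Over all chromosomes the median in runs minus that outside was 29 bp, and it was -13 bp with a distance limit of 1000 bp. Once neighbours separated by 500 bases or fewer had been joined it was 1 bp, with the gap counted in the joined width.

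At like scores, the difference in median width was larger among the better-scoring peaks. Peaks with a score of 2 to 3 had a median width of 186 bp in runs and 179 bp outside, and those with a score of 3 to 5 had 238 bp in runs and 242 bp outside. From 5 to 10 the medians were 363 bp in runs and 317 bp outside, from 10 to 20 they were 479 and 395 bp, and from 20 to 50 they were 618 and 530 bp. Above 50, with 33 peaks in runs and 180 outside, they were 991 and 917 bp. The quartile ranges overlapped in every class. Across all peaks in runs, width and score had a Spearman's rho of 0.78, beside 0.76 for those outside; these are descriptions over peaks of one list, in which the caller tested each peak over its whole width.

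**Figure D5:**
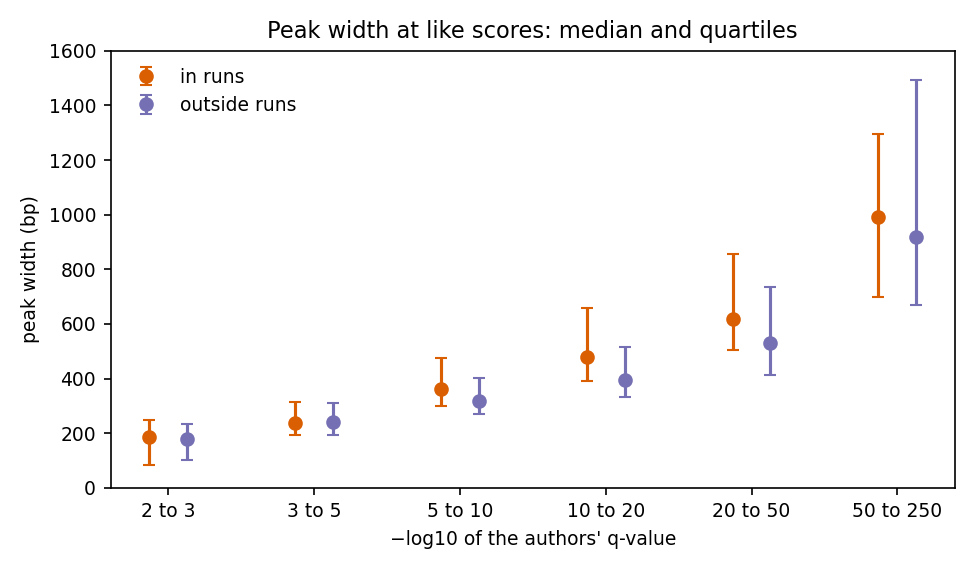
Peak width in bp (vertical axis) by class of −log10 q-value (horizontal axis) for peaks in runs (orange, left) and outside runs (violet, right); points are medians and bars run from the lower to the upper quartile. The medians are alike below a score of 5 (238 and 242 bp from 3 to 5) and higher in runs above it (479 and 395 bp from 10 to 20).

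Peaks of one run differed widely in width. The widest was 3.91 times the narrowest in the median run, with quartiles at 2.52 and 8.48 times, and the median run's narrowest peak was 177 bp and its widest 596.5 bp. In 136 of 224 runs at least 1 peak was under 200 bp, and in 39 at least 1 was over 1000 bp. Such peaks made up 19.2% and 3.08% of the whole list. Whether widths differed more within runs than among as many peaks taken from the list was not tested. Neighbours within a run were weakly alike in width (Spearman's rho = 0.12 over 841 pairs, which share peaks and libraries). For neighbours under the same distance limit in pairs and chains of 3 it was 0.09. First peaks of runs had a median width of 325.5 bp, inner peaks 336 bp and last peaks 358 bp. Strand was not known for any peak, so first and last mean only lower and higher coordinate. The widest peak stood inside the run in 122 cases (54.5%). Of all places in runs 57.9% are inside, a share in which larger runs count for more.

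The widest single peaks in runs were 2814, 2353 and 1987 bp. The widest lay on chromosome III (run from 5562928 to 5568959) as the fourth of 5 peaks, with q = 4.17e-36 beside neighbours of 410 and 277 bp. The second was the last of 5 peaks on chromosome II, in the run from 6830967 to 6837636. There the peaks were 1283, 597, 988, 448 and 2353 bp wide, 206 to 279 bases apart, and filled 85.0% of the run, the highest share of all. The third was the second of 4 peaks near the right end of V (run from 20271296 to 20275732), between peaks of 167 and 123 bp.

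In score, peaks in runs were close to the list as a whole. A q-value below 1e-10 was reached by 333 of the 1065 run peaks (31.3%), where 32.2% of all 9165 peaks did so. The best-scoring 10% of the list supplied 10.3% of run peaks, and 33 run peaks (3.10%) had a q-value below 1e-50, against 180 of those outside runs (2.22%). The median score was 5.53 in runs and 5.99 outside, and the quartiles were 3.15 and 12.4 in runs and 3.26 and 12.5 outside. By chromosome the difference went both ways. The median was 7.41 in runs and 5.45 outside on V, and 4.84 in runs and 5.87 outside on IV.

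Scores varied widely within a run. A run held on average 2.23 peaks of the better-scoring 4582, and 162 of 224 runs (72.3%) held 2 or more. That class made up 46.9% of all peaks in runs and 50.4% of those outside. The best and the poorest score of a run were 17.4 units of −log10 q apart in the median run, and the best stood 7.82 above the next best. A peak of the best-scoring 10% occurred in 89 runs (39.7%), and in 72 of these it was the single one. In 17 runs there were 2 or 3 such peaks, and in 0 runs were all peaks of this class. The class made up 10.3% of all peaks in runs and 9.95% of those outside. Its share of all peaks was not computed for single chromosomes. By chromosome, a peak of the best 10% occurred in 19 of 38 runs on X, 17 of 42 on III, 18 of 45 on IV, 17 of 51 on II, 13 of 28 on I and 5 of 20 on V. A pair or trio of them in one run was found in 5 runs each on I and IV, 3 on II, 2 on V and 1 each on III and X. Runs of 4 peaks held one in 46 of 125 cases (36.8%), runs of 5 in 27 of 63 (42.9%) and runs of 6 or more in 16 of 36 (44.4%), although larger runs also offer more places for it. The median score of a run's peaks ran the other way with size, at 5.97 in runs of 4, 5.77 in runs of 5 and 5.32 in runs of 6 or more, taken as the median over runs. The best peak was also the widest in 141 runs (62.9%). Scores of neighbours in a run were hardly related (Spearman's rho = 0.05 over the same 841 pairs), beside -0.002 in pairs and chains of 3.

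The runs with the highest median score held several strong peaks each. First among them was a run of 4 on chromosome I from 5311475 to 5317201, with peaks of 848, 1300, 364 and 1360 bp. Their q-values were 1.20e-52, 9.55e-114, 3.40e-11 and 7.82e-90, so that 3 of its 4 peaks were in the best 10% of the list. Next came a run of 6 on IV from 5597248 to 5605483, whose q-values were 0.00356, 7.12e-12, 1.33e-83, 0.000774, 2.75e-67 and 9.84e-130. It lay 142 kb from the IV run of 8 peaks that starts at 5747345. A run of 4 on II from 9280847 to 9285402 ended in 2 strong peaks (q = 8.94e-59 and 1.21e-61), as did a run of 4 on IV from 1655318 to 1659494 (4.08e-45 and 3.44e-58). The fifth was the run on II with the peak of 2353 bp, whose last peak had q = 3.87e-134.

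At either extreme some runs were of one kind. In 10 runs all peaks ranked among the better-scoring 4582. The one whose poorest peak scored best, singled out after its values were seen, was on IV from 12197555 to 12204482. Its 5 peaks were 477, 1138, 1261, 1249 and 587 bp wide, with q-values from 1.80e-29 to 4.39e-16, and filled 68.0% of the length. In 17 runs (7.59%) no peak ranked there. How many runs of either kind the share of the class alone would give was not tested. The 17 were 6 of 45 runs on IV, 4 of 42 on III, 3 of 51 on II, 3 of 38 on X, 1 of 28 on I and 0 of 20 on V. The one whose best q-value was the poorest lay on IV from 3814024 to 3817441, with 4 peaks of 200, 99, 70 and 237 bp and a best q-value of 0.000321. Next by the same measure came another run on IV, from 3131520 to 3136802, whose 5 peaks were at most 202 bp wide with a best q-value of 0.000314. The largest of the 17 was on II from 7055523 to 7060483. It held 6 peaks of 122 to 455 bp with q-values from 3.89e-06 to 0.00335, and was singled out after its values were seen.

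The most compact run, on II from 10388005 to 10389961, packed 4 peaks into 1957 bp. They were 345, 1, 399 and 256 bp wide, and the first had q = 3.76e-18 while the others lay between 0.00135 and 0.00661. The most regular run, also singled out after its values were seen, was on III from 8519135 to 8525036. Its 5 peaks followed each other at 1427.5, 1417, 1426 and 1403 bp, an SD of 0.793% of the mean, where the next most regular run had 2.16%. The peaks themselves were not uniform, at 181, 370, 438, 110 and 276 bp, with q-values from 0.00107 to 4.46e-16. How often a list of 224 runs would hold one so regular was not tested.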

How the data were processed

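The deposited list holds 1 row per peak, with a start, an end and a q-value that the authors' caller assigned. The calls were made by PeakSeq on the WormBase WS180 build, per the file headers. Not given in the sources used here are the aligner, program versions, tag extension and pooling of replicates. Neighbouring peaks were at least 200 bases apart, and the largest q-value listed was 0.00997.

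Peaks were sorted by chromosome and start, midpoints were taken, and runs of at least 4 peaks with distances under 2000 bp were found with Python 3.11.15 and pandas 2.3.3. The run finder was tested on simulated data. Chromosome length was taken as the span from first to last peak. Scores are −log10 of the deposited q-values, used only to rank and describe. The better-scoring 4582 and the best 916 peaks (10%) are ranks within the list.

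Runs were named by size, span, highest median score, poorest best q-value, widest peak and smallest distance to the next run. On each chromosome the run with the most peaks was named, with ties broken by the best q-value. The members, classes and naming rule were chosen with earlier results of these data known. Depth is unknown, and no test between libraries was made.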

Additional observations from a re-analysis of the deposited data

How the results depend on the processing

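The number of runs depended on the rule. It was 24 at a distance limit of 1000 bp, 126 at 1500 bp, 224 at 2000 bp, 320 at 2500 bp and 409 at 3000 bp, with 103, 565, 1065, 1570 and 2063 peaks, or 1.12%, 6.16%, 11.6%, 17.1% and 22.5% of the list. The median run was 2682.5, 3540.5, 4403, 5252.5 and 5834 bp long at these limits. A minimum of 3 peaks gave 562 runs with 2079 peaks (22.7%, median 3196 bp), and a minimum of 5 gave 99 runs with 565 peaks (6.16%, median 5475 bp). Distances between peak edges put 16.5% of peaks in runs of median length 5099 bp. A shorter list gives fewer runs at a fixed distance limit by its construction. A q-value of at most 0.001 left 109 runs with 495 peaks (6.89%), the better-scoring 4582 peaks gave 21 with 86 (1.88%), and the best 10% gave 0 with 0 (0%). Merging peaks with at most 500 bases between them left 92 runs with 400 merged peaks (4.80%, median 4894.5 bp). A merged peak ran from its first start to its last end, gap included, and took the best q-value of its parts. Widths and scores after merging are thus not the same measures as before it. Without peaks under 100 bp, 10.1% of peaks were in runs.

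The median width in runs minus outside, 29 bp, turned to -13 bp at 1000 bp, was 66 bp with q-values up to 0.001, 87.5 bp among the better-scoring 4582 peaks and 1 bp after merging. The difference in median score, -0.46, turned to 1.93 in the better-scoring 4582 peaks alone and was -1.45 at 1000 bp and -1.16 after merging. The share of autosomal runs in centres, 44.6%, was 63.6% at 1000 bp, 52.4% among the better-scoring 4582 peaks and 66.1% with the middle 50% as centre. At 1000 bp there were 24 runs over all chromosomes, and 21 among the better-scoring peaks. The share of all autosomal peaks was 41.7% in the central 33.3%. It was not computed for the middle 50% or for the better-scoring peaks alone. Chromosome II had the highest share of its peaks in runs in 9 of the 12 settings with another rule or list, IV at 3000 bp and III after merging, while the best 10% gave no run. The lowest share was on V at each other distance limit, with a minimum of 3 peaks and with distances between edges. It was on I with a minimum of 5 peaks, with q-values up to 0.001, after merging and without peaks under 100 bp. Among the better-scoring 4582 peaks it was on X. Beyond what a limit or a shorter list changes by its construction, the cause was not tested. No paired analysis was possible because each peak has 1 value over both replicates, so no replicate could be left out.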
